A study of Mus musculus with 9 samples.

Results

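The core circadian clock loop was examined through its 10 genes in mouse liver. They were the activators Arntl, Clock and Npas2, the repressors Per1, Per2, Per3, Cry1 and Cry2, and the REV-ERB receptor genes Nr1d1 and Nr1d2. Members were chosen by their symbol in the deposited table of estimated counts, each symbol matched 1 of its 33211 genes, and all 10 were among the 14220 genes abundant enough to be tested. Male C57BL/6 mice (C57BL6/J in the study's methods), wild type and 8 weeks old at the start, were fed a high-fat diet for 7 weeks. The diet had been kept at -20 °C in a freezer (HFDfre, 5 livers) or at 4 °C in a fridge (HFDfri, 4 livers) after its package was opened, and the sequencing compared the liver under these diets. No group on ordinary chow was part of the comparison, so every value below is from a liver on a high-fat diet. The animals lived under a light and dark cycle with free access to food. The hour of liver collection, the feeding state at collection and the order in which animals were taken are not given in the sources used here, so a difference in clock phase between the groups and a difference in level at the same phase cannot be told apart.

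The circadian clock is a feedback loop of transcription that runs in nearly every cell with a period of about a day. ARNTL (also called BMAL1) pairs with CLOCK, or with its relative NPAS2, and the pair binds E-boxes to switch on the Period, Cryptochrome and REV-ERB genes. PER and CRY proteins then return to the nucleus and hold back that pair. REV-ERB proteins form a second arm: they repress Arntl, Clock, Npas2 and Cry1 through the RORE (RRE), a site that the ROR receptors use to activate. In the liver the loop drives daily rhythms of many metabolic genes, and feeding time is a strong cue for its phase. Because these transcripts cycle widely over the day, a level in a single liver depends on the hour it was taken.

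Promoters of clock genes can carry motifs through which members of the loop act on each other. Stretches with such letters are shown because the results below are ordered by these roles. They are matches of letters, and binding was not measured. A RefSeq window (GRCm38.p6) of 250 bases before to 50 bases after a start site was at hand for 9 of the 10 members, with 13 start sites in all, and none was at hand for Per2. Each window was searched on both strands for the E-box (CACGTG), the related E′-box (CACGTT), the D-box (TTATGNAA) bound by DBP, TEF, HLF and NFIL3, and the RRE (AGTAGGTNA). Positions count from the start site, with the base before it as -1. Capitals mark the motifs, and each line is read 5′ to 3′ on the strand of its gene.
Per3, 2 D-boxes, chr4:151044796-151044890, minus strand: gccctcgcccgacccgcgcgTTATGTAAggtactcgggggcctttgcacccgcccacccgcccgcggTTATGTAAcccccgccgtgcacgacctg
Cry1, an E′-box and an E-box, chr10:85185089-85185153, minus strand: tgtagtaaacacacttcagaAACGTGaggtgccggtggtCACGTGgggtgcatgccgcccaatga
Per1, an E-box, chr11:69098763-69098808, plus strand: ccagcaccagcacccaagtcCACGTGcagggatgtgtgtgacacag
Per1, a D-box, chr11:69098914-69098943, plus strand: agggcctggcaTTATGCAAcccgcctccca
Cry2, an E′-box, chr2:92434210-92434255, minus strand: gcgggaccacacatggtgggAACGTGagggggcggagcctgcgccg
Nr1d1, an E′-box, chr11:98775380-98775425, minus strand: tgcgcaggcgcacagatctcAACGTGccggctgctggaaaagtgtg
Arntl, the upstream RRE, chr7:113207492-113207521, plus strand: attggtcggaaAGTAGGTTAgtggtgcgac
Arntl, the downstream RRE, chr7:113207528-113207557, plus strand: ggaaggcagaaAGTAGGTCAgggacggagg

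Per3 held 2 D-boxes at -205 and -158, and neither E-box form was found in its window. Cry1 had the E′-box at -79 and the E-box at -60. Per1 had an E-box at -166 and a D-box at -24 of one start site and no motif at its other. Cry2 and Nr1d1 each had 1 E′-box, at -166 and -28. Arntl had 2 RREs at its downstream start site, with first bases at -8 and 29. The RRE at -8 ran into the start site itself, and the other lay after it. The letters of the RRE were set after the Arntl windows had been seen, so finding them there is a description only. Clock, with 3 start sites, Npas2 and Nr1d2 had none of these letters in their windows. Over 32851 RefSeq windows, the whole window held an E-box in 7.15% and an E′-box in 4.68%. A D-box was there in 3.38% and an RRE in 0.591%. For motifs wholly within the 250 bases before the start, the shares were 6.02%, 3.85%, 3.07% and 0.484%. Neither Arntl RRE lay wholly within those bases.

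**Figure D1:**
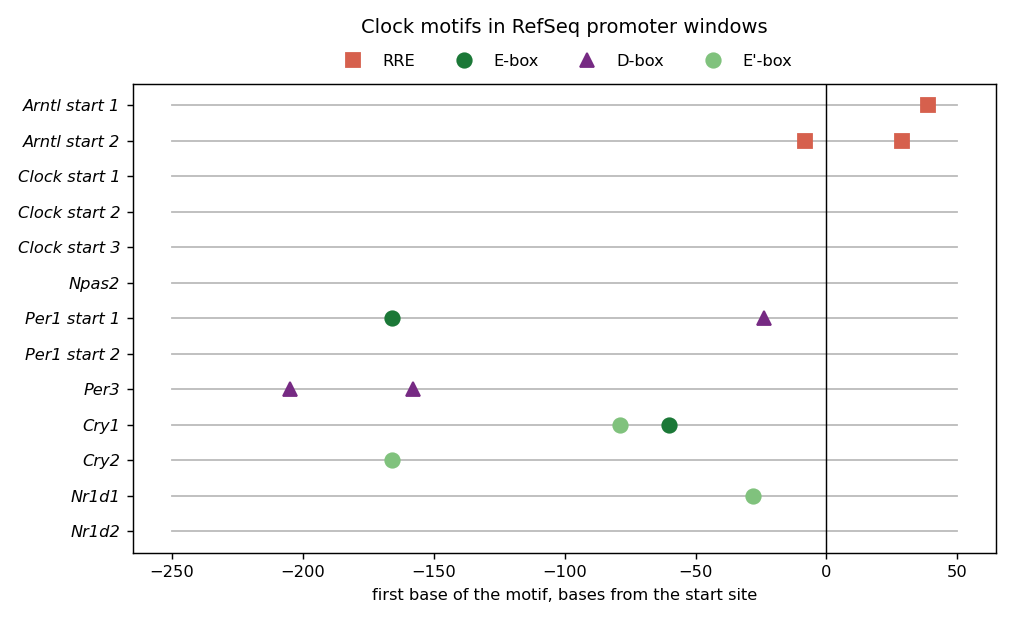
Motifs in the 13 promoter windows of 9 clock genes, plotted by the distance of the motif's first base from the start site in bases. Each grey line is 1 window from 250 bases before to 50 after the start, symbols mark E-boxes, E′-boxes, D-boxes and RREs, and the Per3 line carries 2 D-boxes while the 3 Clock lines carry none.

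The libraries held between 58614917 and 69353439 estimated counts. Levels are given in CPM, counts scaled to a common library size, here after TMM scaling, which sets libraries to a common level by the bulk of genes. Mitochondrial transcripts took 15.4 ± 3.02% of counts in HFDfre and 10.6 ± 2.06% in HFDfri (SD, n = 5 and 4; exact permutation test, two-sided, p = 0.0397, 0.159 after adjustment over 4 such measures). The locus Gm26924, which resembles ribosomal RNA, took from 0.47% to 11.1% of counts. Hepatocyte markers dominated every library, with summed levels of 96981 to 102940 CPM in HFDfre and 85979 to 112500 CPM in HFDfri. The 9 other marker lists for cells of liver, blood, fat and pancreas overlapped between the groups in their summed level, and Adipoq, Plin1, Cpa1 and Prss2 were at 0 in all libraries. Of single markers, the erythroid gene Alas2 passed an adjusted p of 0.05 (log2 fold change 0.40, edgeR, adjusted p = 0.0486), and the hepatocyte genes Cps1 (0.70) and Ttr (-0.43), the stellate gene Des (-0.63) and the cholangiocyte gene Sox9 (0.93) were at an unadjusted p under 0.05 only. The part of these in the results below was not tested. Fewer cells of a type and less RNA per cell cannot be told apart in whole tissue. The labels give separate samples, and nothing says how separately the animals were kept, so the p-values below measure the spread between these samples.

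Clock and Per3 were the members whose groups did not overlap, and they lay in opposite directions: Clock was higher in all 4 HFDfri livers and Per3 was lower in all 4. The other 8 members overlapped between the groups. By edgeR's quasi-likelihood test with Benjamini-Hochberg adjustment over all tested genes, 0 of the 10 members passed an adjusted p of 0.05, where 1.05% of all tested genes passed (0.499% higher and 0.556% lower in HFDfri). At an unadjusted p of 0.05, 2 of the 10 (20%) passed, Clock higher and Per3 lower, close to the 21.2% of all genes (11.4% higher and 9.79% lower). The groups did not overlap for 7.69% of all genes. Of the members, 6 had a positive and 4 a negative log2 fold change (HFDfri minus HFDfre), with a median of 0.05 against -0.01 over all tested genes. For 5 members the fold change was under 0.1 in size on the log2 scale.

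**Figure D2:**
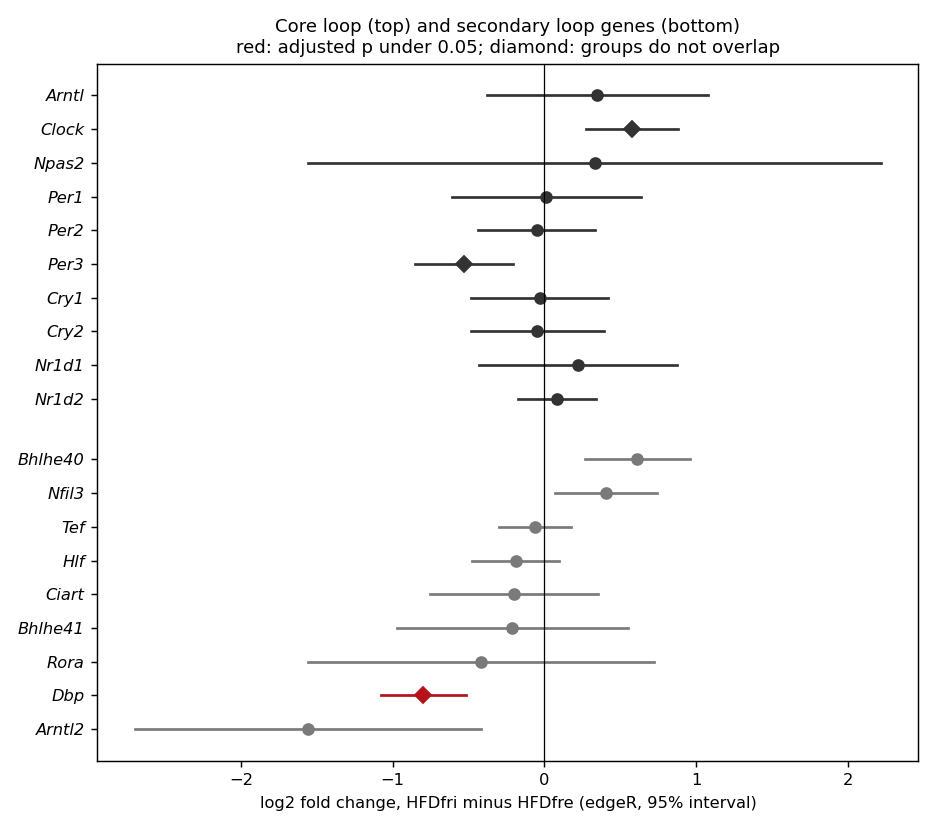
Log2 fold change, HFDfri minus HFDfre, with 95% intervals from edgeR, for the 10 core loop genes (top) and 9 genes of the secondary loop (bottom). Clock and Per3 are the members drawn as diamonds, which mark groups that do not overlap, and Dbp, in red, is the gene past an adjusted p of 0.05.

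Among the activators, Clock (ENSMUSG00000029238, chromosome 5, 76209868 to 76304792, minus strand) encodes the DNA-binding partner of ARNTL. Clock measured 11.8, 12.9, 10.4, 12.9 and 10.6 CPM in the HFDfre livers and 13.8, 19.6, 21.2 and 15.2 CPM in the HFDfri livers. The lowest HFDfri liver was thus above the highest HFDfre liver, and the HFDfri livers were also spread more widely. The mean was 11.7 ± 1.21 CPM in HFDfre and 17.5 ± 3.51 CPM in HFDfri (SD, n = 5 and 4), a fold of 1.49 with a 95% interval of 1.21 to 1.84. On the log2 scale that was 0.58 with SE 0.14 (edgeR, adjusted p = 0.0665). By DESeq2 the same difference had an adjusted p of 0.0072, where 7.26% of all tested genes passed, and edgeR without HFDfri 1 gave 0.021, where 7.65% passed. With the mitochondrial share as a covariate the log2 fold change was 0.32 (adjusted p = 0.58), and the part of that share, which moves with the groups, was not tested. Scaled by library totals alone, the Clock groups overlapped.

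Arntl (ENSMUSG00000055116, chromosome 7, 113207465 to 113314126, plus strand), whose protein is the obligate activator of the loop, had few counts here, 36 to 124 per library. The HFDfre livers had 1.39, 1.73, 1.30, 0.927 and 0.504 CPM, and the HFDfri livers 1.35, 1.71, 1.03 and 1.84 CPM. The lowest value was that of HFDfre 5, the highest that of HFDfri 4, and the groups overlapped. The log2 fold change was 0.35 with SE 0.33 (edgeR, adjusted p = 0.588), with a 95% interval of the fold from 0.768 to 2.11. The interval does not exclude a doubling.

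Npas2 (ENSMUSG00000026077, chromosome 1, 39193731 to 39363236, plus strand), the relative that can take the place of CLOCK, had the fewest counts, 0 to 42 per library. It stood at 0.270, 0.296, 0.153, 0.112 and 0.0560 CPM in HFDfre and at 0.196, 0.111, 0.570 and 0 CPM in HFDfri. HFDfri 3 and HFDfri 4 were thus the highest and the lowest library. A count of 0 allows up to 3 counts, which is 0.0494 CPM in HFDfri 4, for counting error only. Its log2 fold change of 0.33 with SE 0.87 (edgeR, adjusted p = 0.864) turned negative without HFDfri 3, at -0.78.

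**Figure D3:**
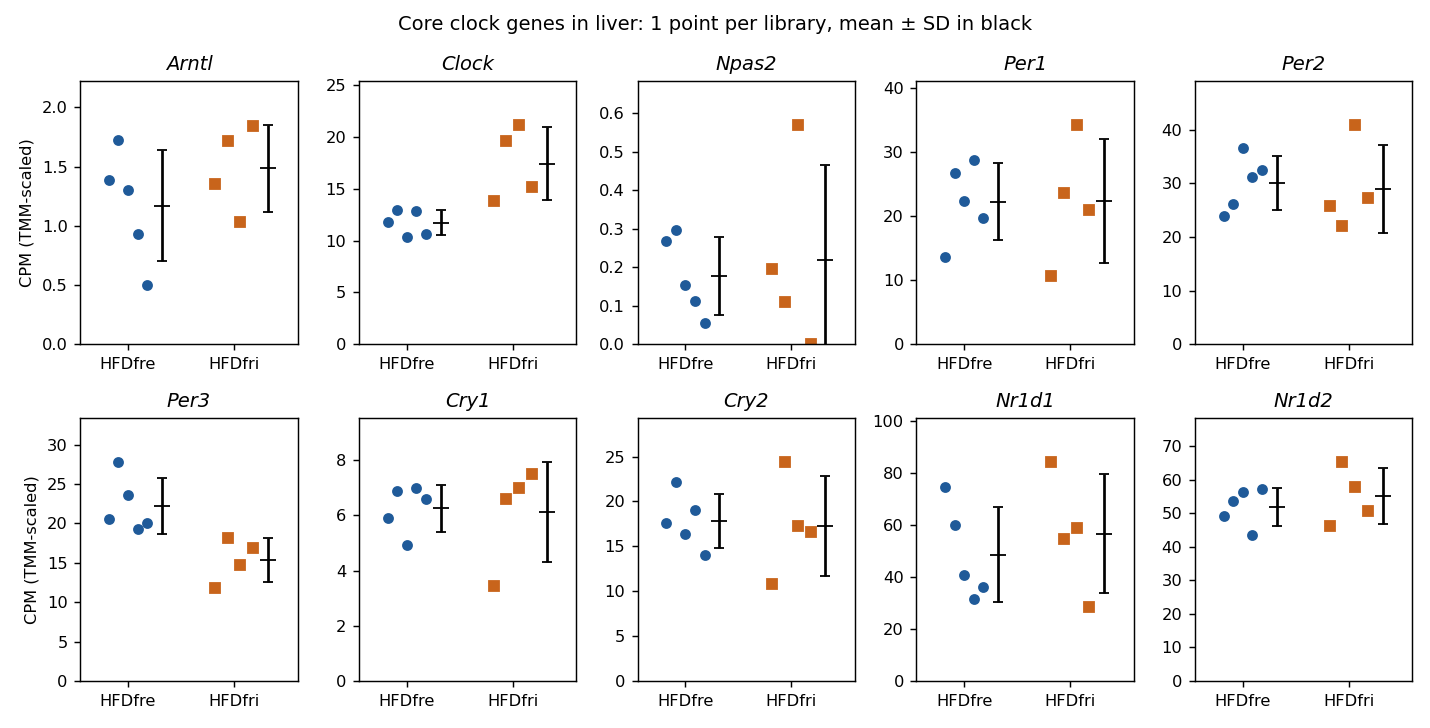
CPM of the 10 clock genes in each of 9 livers, with HFDfre as circles and HFDfri as squares, each panel on its own linear axis from 0, and the mean ± SD in black beside the points. The Clock squares (13.8 to 21.2 CPM) lie above all circles and the Per3 squares (11.8 to 18.1 CPM) below all circles; the lower arm of the Npas2 HFDfri bar runs below 0 and is cut there.

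Of the Period genes, which encode the repressors that set the pace of the loop, Per3 alone separated the groups. Per3 (ENSMUSG00000028957, chromosome 4, 151003652 to 151044665, minus strand) measured 20.5, 27.8, 23.6, 19.2 and 20.0 CPM in HFDfre and 11.8, 18.1, 14.7 and 16.9 CPM in HFDfri. The gap was narrow, between 18.1 CPM in HFDfri 2 and 19.2 CPM in HFDfre 4. Its mean was 22.2 ± 3.54 CPM against 15.4 ± 2.78 CPM (SD, n = 5 and 4), a fold of 0.692 with a 95% interval of 0.555 to 0.865. On the log2 scale that was -0.53 with SE 0.15 (edgeR, adjusted p = 0.0917). DESeq2 gave an adjusted p of 0.0197 for the same fold. Per3 kept this sign with an unadjusted p under 0.05 in all 21 alternative fits, between -0.62 and -0.43, though its groups overlapped when scaled by library totals alone.

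Per1 (ENSMUSG00000020893, chromosome 11, 69095217 to 69109960, plus strand), which also responds within the hour to glucocorticoids and other cues, had 13.6, 26.8, 22.3, 28.8 and 19.7 CPM in HFDfre and 10.7, 23.7, 34.3 and 21 CPM in HFDfri. Both the lowest and the highest liver were in the HFDfri group, HFDfri 1 and HFDfri 3. On the log2 scale the groups differed by 0.01 with SE 0.29 (edgeR, adjusted p = 0.987), and the interval of the fold ran from 0.655 to 1.55. Its sign was negative in 10 of the 21 alternative fits, so no direction is given.

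Per2 (ENSMUSG00000055866, chromosome 1, 91415982 to 91459324, minus strand) measured 23.9, 26.2, 36.5, 31.3 and 32.5 CPM in HFDfre and 25.8, 22.1, 40.9 and 27.3 CPM in HFDfri. Again HFDfri held both ends of the range, the lowest being HFDfri 2. HFDfri minus HFDfre was -0.05 in log2 with SE 0.18 (edgeR, adjusted p = 0.901), with a fold interval of 0.739 to 1.26. In the libraries with a Gm26924 share under 3% it was -0.47 (edgeR, adjusted p = 0.464) without overlap. Those libraries were HFDfre 3, HFDfre 5, HFDfri 1, HFDfri 2 and HFDfri 4, so few that groups separate more easily. There 3 members, Clock, Per2 and Per3, passed the unadjusted threshold, as did 1401 of the 14483 genes tested.

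The Cryptochromes, which repress the ARNTL and CLOCK pair most directly, had nearly equal means. Cry1 (ENSMUSG00000020038, chromosome 10, 85131700 to 85185064, minus strand) had 5.91, 6.87, 4.93, 6.99 and 6.61 CPM in HFDfre and 3.44, 6.58, 6.98 and 7.49 CPM in HFDfri. HFDfri 1 lay well below the other HFDfri livers. The log2 fold change was -0.03 with SE 0.21 (edgeR, adjusted p = 0.949, fold interval 0.715 to 1.34), and without HFDfri 1 it was 0.15. With the mitochondrial share as a covariate it was -0.57 (adjusted p = 0.451), and Cry1 then passed the unadjusted threshold while Clock did not. Cry2 (ENSMUSG00000068742, chromosome 2, 92403646 to 92434043, minus strand) had 17.6, 22.1, 16.4, 19.1 and 14.0 CPM in HFDfre and 10.8, 24.4, 17.2 and 16.6 CPM in HFDfri. HFDfri 1 was again the lowest and HFDfri 2 the highest liver, with a log2 fold change of -0.05 and SE 0.20 (edgeR, adjusted p = 0.923, fold interval 0.715 to 1.31). The sign of each turned in 5 of the 21 alternative fits.

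The REV-ERB genes had the highest levels of the members per kilobase of exon. Nr1d1, REV-ERB alpha (ENSMUSG00000020889, chromosome 11, 98767932 to 98775333, minus strand), measured 74.8, 60.1, 40.9, 31.6 and 36.1 CPM in HFDfre and 84.5, 54.7, 59 and 28.6 CPM in HFDfri. The highest and lowest values, both in HFDfri, lay 2.96-fold apart, and the 2 groups covered almost the same span. The log2 fold change was 0.22 with SE 0.30 (edgeR, adjusted p = 0.719, fold interval 0.741 to 1.83), and without HFDfri 1 it was -0.05. Nr1d1 shares 263 exon bases, 8.55% of its exons, with Thra on the opposite strand, and whether counting used strand is not given. Thra itself measured 6.09 to 10.1 CPM and differed by -0.14 on the log2 scale (edgeR, adjusted p = 0.669), and how reads of the shared bases were divided was not tested.

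Nr1d2, REV-ERB beta (ENSMUSG00000021775, chromosome 14, 18204054 to 18239127, minus strand), measured 49.2, 53.8, 56.3, 43.5 and 57.2 CPM in HFDfre and 46.4, 65.5, 57.7 and 50.7 CPM in HFDfri. It had the narrowest range of the 10 genes, 1.51-fold from lowest to highest liver. The log2 fold change was 0.08 with SE 0.12 (edgeR, adjusted p = 0.733), and the fold interval of 0.887 to 1.27 was the tightest among the members.

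Scatter between livers of the same group differed by member. The biological coefficient of variation, the spread between livers beyond counting error, had a median of 22.6% over the members and 19.2% over all tested genes, and 7 members were above the latter. It was 35.1% for Arntl, 31.6% for Nr1d1, 30.2% for Per1 and 81.8% for the rare Npas2. Nr1d2 at 14.1%, Clock at 16.4% and Per3 at 16.8% were the least variable. In the test itself the SE of the log2 fold change was 0.14 for Clock and 0.15 for Per3. Among the members only Nr1d2 had a smaller SE, 0.12.

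**Figure D4:**
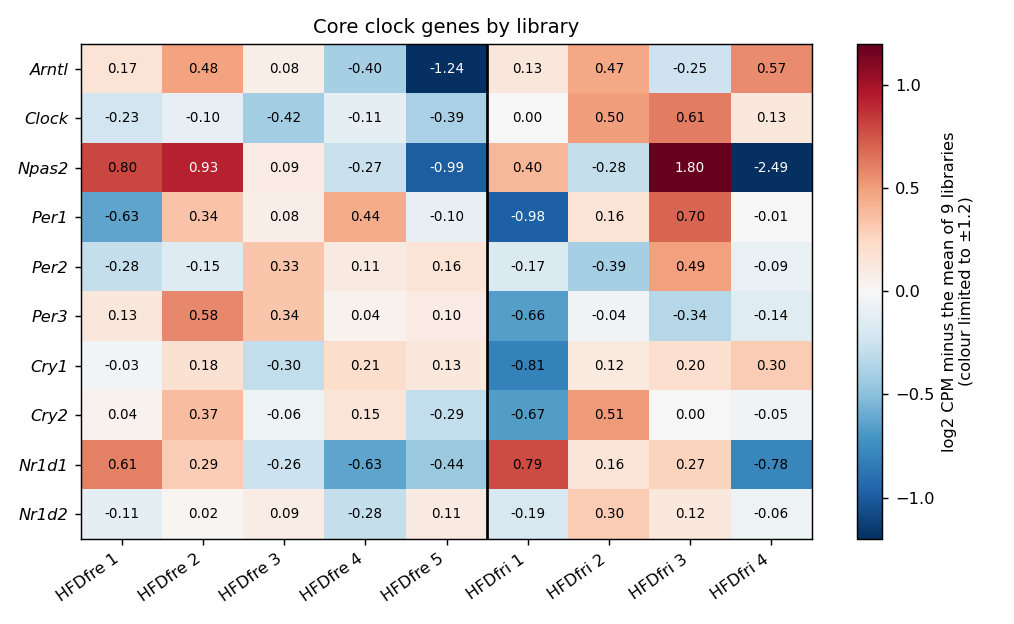
Log2 CPM (prior count 2) of each clock gene in each liver minus that gene's mean over 9 livers, printed in the cells and coloured up to ±1.2, with a line between HFDfre (left) and HFDfri (right). HFDfri 1 is below the mean for all 5 Period and Cryptochrome genes and 0.79 above it for Nr1d1, and Clock is above its mean in HFDfri 2, HFDfri 3 and HFDfri 4.

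Read by liver, HFDfri 1 stood out. All 5 Period and Cryptochrome genes were below their 9-liver mean there, by 0.98 for Per1, 0.81 for Cry1, 0.67 for Cry2, 0.66 for Per3 and 0.17 for Per2 on the log2 scale, while Nr1d1 was 0.79 above its mean. HFDfre 1 had a part of this pattern, with Per1 at -0.63 and Nr1d1 at 0.61. In HFDfre 4 all 5 repressor genes were above their mean and Nr1d1 was at -0.63. The ratio of Nr1d1 to Per1 counts consequently ran from 1.10 to 7.88 over the 9 livers, with the groups overlapping. That ratio was not among those planned. HFDfre 1 and HFDfri 1 also had the lowest TMM factors, 0.861 and 0.909, and the part of this in the pattern was not tested.

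Ratios between the counts of 2 members within a liver do not depend on how libraries were scaled, and they compare livers, not the levels of the 2 genes. Per3 to Clock counts stood at 1.73, 2.15, 2.27, 1.49 and 1.89 in HFDfre and at 0.854, 0.924, 0.695 and 1.11 in HFDfri. Every HFDfre liver was at 1.49 or above and every HFDfri liver at 1.11 or below. The difference in the log2 ratio was -1.09, from 0.91 ± 0.24 to -0.18 ± 0.28 (SD, n = 5 and 4), and this pair was picked after its members' values were seen, so it carries no test. Arntl to Per3 ran from 0.0265 to 0.0694 in HFDfre and from 0.0718 to 0.117 in HFDfri without overlap, a difference of 0.95 in log2. It was the only planned ratio to separate the groups, and the gap was narrow. Per3 already separated the groups by itself while Arntl did not, and this ratio carries no test.

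The ratios between close relatives showed no such split. Cry1 to Cry2 counts ran from 0.301 to 0.473 in HFDfre and from 0.270 to 0.452 in HFDfri. Per1 to Per2 ran from 0.571 to 1.03 and from 0.415 to 1.07, and Nr1d1 to Nr1d2 from 0.631 to 1.52 and from 0.564 to 1.82. Arntl to Clock, partners in the activating pair, ran from 0.05 to 0.136 and from 0.0499 to 0.123. Arntl to Nr1d1, whose transcripts peak at different times of day in liver, ran from 0.0147 to 0.0325 in HFDfre and from 0.0164 to 0.0656 in HFDfri, with HFDfri 4 the highest.

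Levels per kilobase of annotated exon put the members in the order Nr1d1, Nr1d2, Per2, Per1, Cry2, Per3, Cry1, Clock, Arntl and Npas2. The means over 9 livers fell from 17.0 CPM per kb for Nr1d1 and 9.87 for Nr1d2 to 0.174 for Arntl and 0.0409 for Npas2. Clock, the highest of the activators, was at 1.04 CPM per kb, below each REV-ERB, Period and Cryptochrome gene in the mean. Per3 at 2.0 and Cry1 at 1.86 CPM per kb were not separated, since Per3 was the higher in 5 of 9 livers. Per2 was above Per1 in 7 livers, Nr1d1 above Nr1d2 in 8 and Per1 above Cry2 in 8. The other 5 steps of the order held in all 9 livers. With the longest annotated transcript as the length the order of the means was the same, with Per3 then above Cry1 in all 9 livers but Per2 above Per1 in 5 and Per1 above Cry2 in 6.

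**Figure D5:**
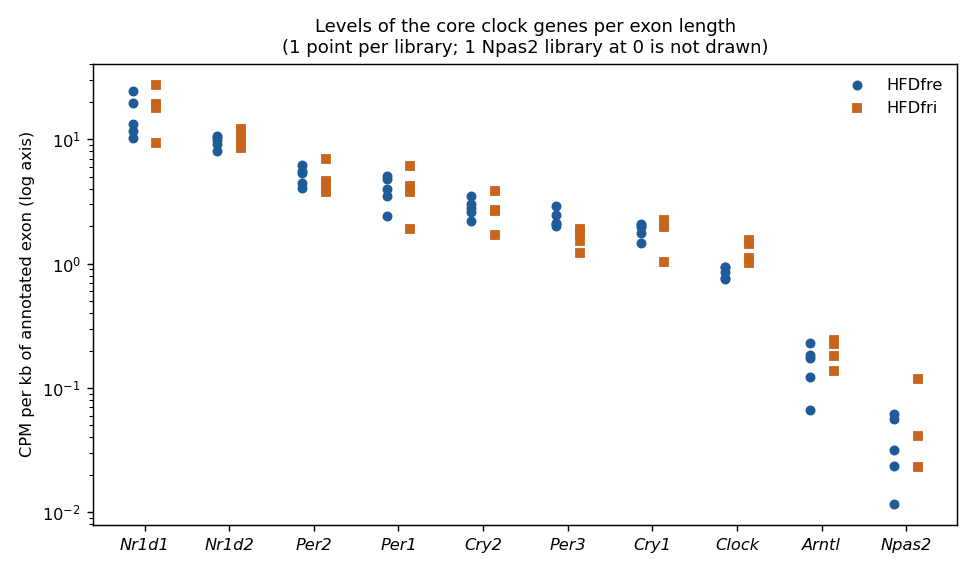
CPM per kb of annotated exon on a log axis for the 10 clock genes in order of their mean, 1 point per liver, HFDfre as circles and HFDfri as squares. Levels run from a mean of 17.0 for Nr1d1 to 0.0409 for Npas2, Per3 and Cry1 overlap, and the Npas2 value of 0 in HFDfri 4 cannot be drawn on this axis.

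The secondary loop and its partners were described with 11 genes, of which 10 were tested and Rorb was at 0 in every liver. In this list 0 genes passed the adjusted threshold upward and 1 downward, where 0.499% and 0.556% of all tested genes passed. At the unadjusted one 2 were higher and 2 lower, where 11.4% and 9.79% of all tested genes were. The median log2 fold change was -0.19. Dbp, the PAR bZIP activator that is a direct E-box target of the clock and acts through D-boxes, was lower in HFDfri. Whether it acted on the D-boxes of Per3 in these livers was not tested. It measured 98.9, 85.0, 84.0, 71.0 and 72.9 CPM in HFDfre and 52.7, 54.9, 41.0 and 41.0 CPM in HFDfri, without overlap. The log2 fold change was -0.80 with SE 0.13 (edgeR, adjusted p = 0.0293), and it was past that threshold in 13 of 21 alternative fits. Leaving out HFDfre 3, HFDfre 5, HFDfri 3 or HFDfri 4 ended the call (adjusted p = 0.0888, 0.0705, 0.081 and 0.0636), and with the mitochondrial share as a covariate the log2 fold change was -0.58 (adjusted p = 0.24). Dbp shares 539 exon bases, 18% of its exons, with Sphk2 on the opposite strand, which measured 34.6 to 49.1 CPM with a log2 fold change of 0.04. Dbp to Clock counts ran from 5.51 to 8.36 in HFDfre and from 1.93 to 3.80 in HFDfri. This pair was picked after the values of both genes were seen, so its split follows from theirs and carries no test.

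The related D-box activators did not separate. On the log2 scale Tef differed by -0.06 (edgeR, adjusted p = 0.793) and Hlf by -0.19 (adjusted p = 0.436). Nfil3, the D-box repressor, was at 6.79 to 13.0 CPM in HFDfre and 12.6 to 14.1 CPM in HFDfri, a log2 difference of 0.41 (edgeR, adjusted p = 0.167). Bhlhe40, an E-box repressor also known as DEC1, was at 45.6 to 68.1 CPM and 66.7 to 102 CPM, a log2 difference of 0.61 (edgeR, adjusted p = 0.0801). Its relative Bhlhe41 had -0.21 (adjusted p = 0.772) and Ciart, a repressor of the ARNTL and CLOCK pair, -0.20 (adjusted p = 0.698). Arntl2, a rare paralog of Arntl with 6 to 64 counts, had -1.56 (edgeR, adjusted p = 0.13).

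Rora, which encodes a receptor that opposes REV-ERB at the RRE, overlapped between the groups. It measured 37.7, 37.1, 34.3, 32.4 and 34.2 CPM in HFDfre and 24.4, 43.9, 34.7 and 2.20 CPM in HFDfri. The value of HFDfri 4 came from 134 counts, and that liver set most of the log2 fold change of -0.42 (edgeR, adjusted p = 0.692), which was -0.03 in the fit without it.

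The regulators of clock proteins were described with 39 genes for kinases, ubiquitin ligases and cofactors, all tested. In this list 0 passed the adjusted threshold, where 1.05% of all tested genes passed. At the unadjusted one 9 were higher and 4 lower, where 11.4% and 9.79% of all tested genes were. The median log2 fold change was 0.12. The smallest p-values belonged to Ddb1, part of a ubiquitin ligase complex, at 0.61 (edgeR, adjusted p = 0.0589), and to Fbxl21, an F-box protein that binds CRY, at -0.84 (adjusted p = 0.0665). Prkaa2, a catalytic subunit of AMPK, had 0.45 (adjusted p = 0.116) and Ncor1, the corepressor of REV-ERB, 0.28 (adjusted p = 0.124).

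Liver genes known to follow the clock were described with 26 genes. Of these 0 passed the adjusted threshold, where 1.05% of all tested genes passed. At the unadjusted one 4 were higher and 2 lower, where 11.4% and 9.79% of all tested genes were. The median was 0.03. Cyp2a5, a cytochrome P450 known as a target of DBP and its relatives, was at 449 to 606 CPM in HFDfre and at 176 to 417 CPM in HFDfri, without overlap (log2 fold change -0.92, edgeR, adjusted p = 0.0566). Ppara, the receptor for fatty acids, had 0.82 (adjusted p = 0.108), Tspan4, a tetraspanin, 0.64 (adjusted p = 0.14) and Slc45a3, a membrane transporter, 0.46 (adjusted p = 0.166).

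Cues that set or shift the liver clock were described with 29 genes for feeding, glucocorticoids, temperature and serum, and Per1 is one of them. Of these 0 passed the adjusted threshold, where 1.05% of all tested genes passed. At the unadjusted one 6 were higher and 0 lower, where 11.4% and 9.79% of all tested genes were. The median was 0.18. The feeding list of 13 genes had 2 higher at that threshold, among them the fatty acid synthase gene Fasn at 0.44 (edgeR, adjusted p = 0.109), whose groups did not overlap. Of the 7 temperature genes 3 were higher at the unadjusted threshold, and of the 3 serum genes 1 was, beside the 11.4% of all tested genes. These lists are short, and their counts were not tested against that share. Hsp90aa1, a chaperone gene induced by heat, had 0.79 (adjusted p = 0.118). Hspa1b, likewise a heat shock gene, had 2.16 (adjusted p = 0.154) on the strength of 76.1 CPM in HFDfri 3 against 1.65 to 9.90 CPM in the other 8 livers. Egr1, an immediate early gene, had 1.81 (edgeR, adjusted p = 0.122) on the strength of 34.1 CPM in HFDfri 1 against 2.38 to 4.98 CPM in the others, and was at 0.39 without that liver. The 6 glucocorticoid genes, Per1 among them, had 0 at the unadjusted threshold and a median of 0.16.

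Between members, the 45 pairs of log2 CPM were correlated over the 9 livers, which share the diet groups and the scaling of their libraries. By exact permutation over the livers, 0 pairs passed after adjustment (smallest adjusted p = 0.549) and 2 were at an unadjusted p under 0.05. Npas2 and Nr1d1 had r = 0.74 and rho = 0.75 (n = 9, exact permutation p = 0.0187 and 0.0255), and r = 0.72 without the 2 livers farthest from the median of Npas2. Per1 and Cry1 had r = 0.74 and rho = 0.60 (n = 9, exact permutation p = 0.0244 and 0.0968), but r = 0.25 without the 2 livers farthest in Per1, so the relation rests on those livers.

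Genes most like a member were ranked by Pearson's r over the 9 livers among 10123 genes with a mean of at least 1 on the log2 CPM scale, as a description. Arntl was tracked most closely by Itgal (r = 0.94), Rwdd1 (0.88), Tubgcp6 (0.87) and Ranbp10 (0.87), and most inversely by Phka1 (-0.93), Spidr (-0.89), Mrps16 (-0.89) and Tmem55a (-0.88). For Nr1d1 the closest were Gca (0.95), Plekhg3 (0.92), Mga (0.91) and Chka (0.91), and the most inverse were 1700024P16Rik (-0.96), Gda (-0.95), Rnd2 (-0.93) and Paqr7 (-0.93). Members of the core loop were left out of this ranking beforehand, and none of the genes named belongs to the lists above.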

How the data were processed

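RNA-seq of liver was analysed in 5 HFDfre and 4 HFDfri libraries. The authors aligned the reads and deposited estimated counts per gene, which are whole numbers without scaling between libraries. The submitters' processing notes name HISAT2, StringTie and mm10; the annotation, strand and versions are not given in the sources used here. The library kit is given differently in the labels (NEBNext Ultra) and the study's methods (KAPA). The value 4 was more frequent (3990 gene and library pairs) than 3 (2172) or 5 (1840), so counting error is approximate. All 9 columns were mapped to samples by the codes in their titles.

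Counts were analysed with edgeR 4.0.16 in R 4.3.3 (TMM, filterByExpr by group, quasi-likelihood test, Benjamini-Hochberg adjustment over 14220 genes). Log2 CPM used a prior count of 2, as did count ratios. Alternatives were DESeq2 1.42.0, limma-voom 3.58.1, other scalings, filters and covariates, and leaving out each library. Floors (3 counts) and 95% intervals cover counting error or the fitted spread only. Scripts were tested on simulated data. Coordinates are from GENCODE M21 (GRCm38), which held 96.3% of the identifiers and all 10 members. Ciart was matched by its identifier (Gm129 in the table).

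The members, the companion lists and the tests were chosen with earlier results of these data known. All 10 members were named. From the lists, every tested gene of the secondary loop was named except 1 that is not reported here, and elsewhere up to 4 genes with the smallest p. Replicate numbers in the titles did not pair the samples. Amy2b was not analysed here.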

Additional observations from a re-analysis of the deposited data

Results flagged for a closer look

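Among 82 sets of 4 or 5 livers searched for a value set apart from its group, 5 were found, where chance would give about 4.1 (1 in 20). All 5 lay in the HFDfri group, and 4 were in HFDfri 1. Cry1 was at 1.794 on the log2 CPM scale in HFDfri 1, against 2.725 to 2.91 in the other 3 HFDfri livers. Ciart was at 2.675 in HFDfri 1, against 3.989 to 4.069, and Hlf at 5.027 there, against 5.593 to 5.683. Egr1 was at 5.092 in HFDfri 1, against 1.868 to 2.326. Fbxl21 was at 2.213 in HFDfri 2, against 1.52 to 1.628 in the others. Without HFDfri 1 the log2 fold change of Cry1 was 0.15, that of Ciart 0.03 and that of Hlf -0.07.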

How the results depend on the processing

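The count of members past an adjusted p of 0.05 was 0 in the reported fit and in all but 2 of 21 alternatives: it was 2 by DESeq2 (Clock and Per3) and ranged from 0 to 1 when 1 library was left out, the 1 being Clock without HFDfri 1. Clock, Per3, Arntl and Dbp kept their signs throughout (Clock 0.32 to 0.68, Arntl 0.15 to 0.86, Dbp -0.88 to -0.58). Members without overlap were 0 under library totals and 4 (Arntl, Clock, Per2, Per3) in the libraries with a Gm26924 share under 3%. The latter were HFDfre 3, HFDfre 5, HFDfri 1, HFDfri 2 and HFDfri 4, so few that groups separate more easily. The share of all genes without overlap is not given for these settings, so these counts have no background beside them. Among all genes, 150 passed in the reported fit, against 1033 by DESeq2, 76 under library totals, 72 with no filter, 38 with the Gm26924 share and 5 with the mitochondrial share as covariate, 2 in the libraries under 3%, and 6 to 1106 when 1 library was left out: 39, 51, 6, 46 and 6 without HFDfre 1 to 5, and 1106, 235, 10 and 26 without HFDfri 1 to 4. With the replicate block 0 genes passed (2536 at an unadjusted p under 0.05). The replicate numbers did not pair the samples (correlations of deviations 0.03, 0.08, -0.14 and 0.03), and under that block Clock was 0.52, Per3 -0.57, Npas2 -0.60 and Per1 -0.091. The cause of these shifts was not tested.

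Signs turned as follows, in log2 fold change. With the Gm26924 share as covariate, Cry1 was 0.04 and Cry2 0.043. In the libraries under 3%, Per1 was -0.19, Cry1 0.013, Cry2 0.18, Nr1d2 -0.073 and Hspa1b -0.093. Under library totals, which moved the median of all genes to 0.05, Per2 was 0.002, Cry1 0.043, Cry2 0.038 and Tef 0.0083. By limma-voom, Npas2 was -0.48 and Per1 -0.05. Per1 was -0.0038 with a minimum of 10 counts, -0.0011 with no filter and -0.56 with the mitochondrial share as covariate, where Bhlhe41 was 0.55. Leaving out 1 library, the range was -0.27 to 0.23 for Per1, -0.26 to 0.06 for Per2, -0.14 to 0.15 for Cry1, -0.26 to 0.11 for Cry2, -0.049 to 0.44 for Nr1d1, -0.011 to 0.14 for Nr1d2, -0.78 to 0.73 for Npas2, -0.30 to 0.027 for Ciart, -0.12 to 0.024 for Tef and -0.64 to 0.028 for Bhlhe41. Npas2 was too low to be tested in 4 of the 21 alternatives, and its counts of 0 to 42 limit what can be said of it.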
